A study of Danio rerio with 73 samples.

Results

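The ovaries of adult zebrafish that had been reared at 36 °C while their gonads formed were set against the ovaries of fish reared at 28 °C throughout that period. The members were the count tables whose titles begin with 204 and end in FHT (36 °C, 12 fish) or FLT (28 °C, 9 fish), 21 of the 73 fish in the series. Fish 14 of the 36 °C ovaries had 1404 CpG read calls in all and was left out under a minimum of 2000, so 11 fish at 36 °C were compared with 9 at 28 °C. All of them were laboratory fish of the AB strain, 90 days old, and their titles share the prefix 204, which the labels do not define. Methylation was read by multiplex bisulfite sequencing, in which bisulfite converts unmethylated cytosine so that it is read as T before selected targets are amplified by PCR, here in promoter regions of 18 genes by the series design. The series also holds testes at both temperatures and ovaries at 28 °C with the prefix 128. No label names a tank or family for any fish, and the p-values below therefore measure the spread between these fish alone.

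Zebrafish form their gonads in the first weeks of life, and heat at that age is known to shift sex ratios towards males. Cytosines followed by guanine, called CpGs, can carry a methyl group that is copied at each cell division, so a mark set early can still be read in the adult. Promoters of active or poised genes are often low in methylation, while silent promoters can be densely methylated. An ovary holds oocytes together with follicle and other somatic cells, and a level measured in the whole organ is an average over them. A change in the level within a cell type and a change in the mix of cells cannot be told apart in such samples.

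The panel held 323 CpGs in 20 amplicons on the GRCz10 build, each read on a single strand. No annotation of GRCz10 was at hand, so amplicons carry no gene name and are called by their chromosome, with a letter in order of position where a chromosome holds several. Of the 20, 8 had a mean level below 5% over all fish of the series, 3 above 90% and 9 in between. Depth was high in most fish, with 4023610 to 10174267 read calls at 36 °C and 711295 to 9004777 at 28 °C. No pair of the 190 pairs of ovary libraries held identical counts. An amplicon's level in a fish is the mean percent of methylated reads over its CpGs with at least 10 reads, and a difference is given in percentage points, 36 °C minus 28 °C. No use of molecular identifiers could be read from the labels, so depth may overstate the number of molecules sampled.

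No amplicon and no CpG passed the test for a difference between rearing temperatures. The exact two-sided permutation test with Benjamini-Hochberg adjustment called 0 of 18 amplicons (0%) and 0 of 294 CpGs (0%). Before adjustment 5 amplicons (27.8%) and 24 CpGs (8.16%) had a p below 0.05, each higher at 36 °C. These amplicons were chr5a, chr5b, chr8, chr14 and chr19a. After adjustment limma called 0 amplicons and 0 CpGs. A quasi-binomial logistic model of the read counts, in which deeper fish weigh more, called 1 amplicon, chr14, and 4 CpGs. The largest difference in size among amplicons was at chr16, where the 36 °C ovaries averaged 67.0% ± 7.30 (SD, n = 11) and those at 28 °C averaged 61.9% ± 6.57 (SD, n = 8). That difference was 5.04 points (SE 3.20, 95% limits -1.87 to 11.9, exact permutation test, adjusted p = 0.360). Mean levels were higher at 36 °C in 15 of 18 amplicons and in 203 of 294 CpGs, with median differences of 0.182 and 0.184 points. Amplicons of a fish share its DNA and library, so these counts are not independent.

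**Figure D1:**
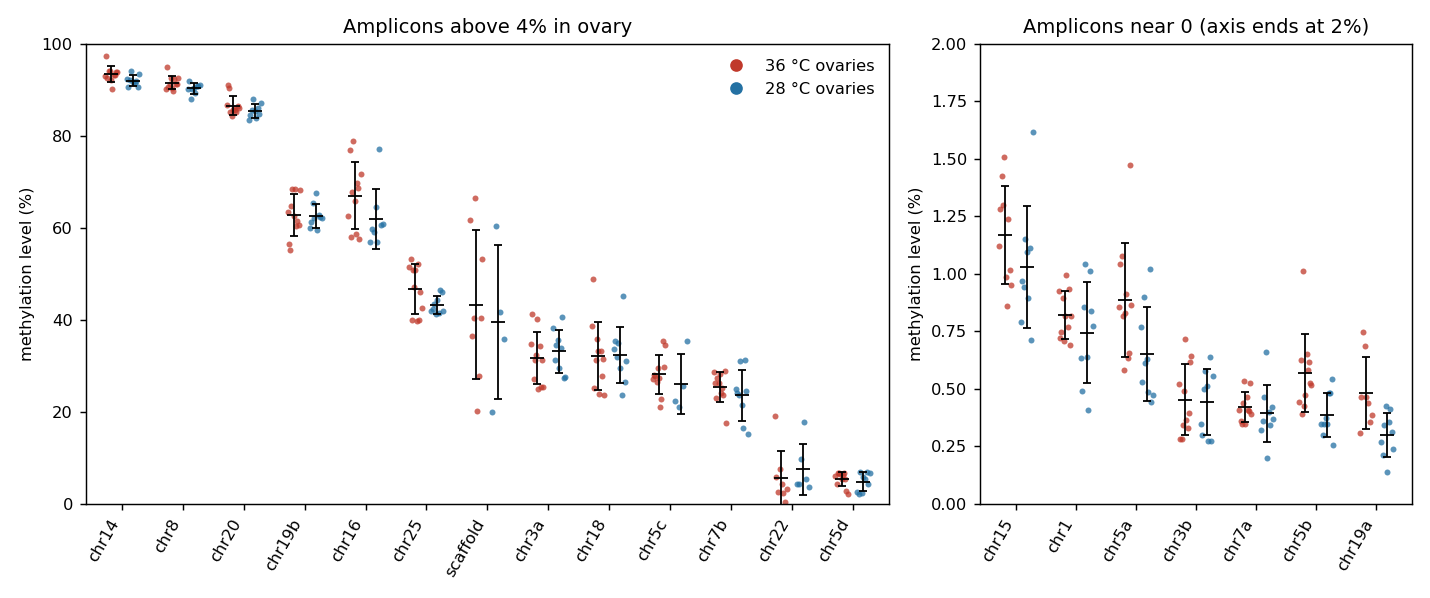
Methylation level of each amplicon in each ovary, in percent, with 36 °C fish in red to the left and 28 °C fish in blue to the right. Bars give the mean and SD over fish, amplicons are ordered by their 28 °C mean, and the right panel has an axis that ends at 2%. The groups overlap at each amplicon.

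The data put limits on how large a change could be present. Limits were found by shifting the 36 °C fish until the exact permutation test refused the shift, and joint limits hold for the 18 amplicons together at 95%. Joint limits lay within 5 points of 0 at 11 of 18 amplicons, within 10 points at 15 and within 20 points at all 18. The widest was 16.0 points, the upper limit at chr16. None of the 7 intermediate amplicons tested was among the 11, and their narrowest joint limits reached 6.02 points, at chr19b. Among the 8 amplicons of low level the widest was 3.36 points, at chr5d, and the other 7 stayed within 1 point. Those 7 averaged 0.300% to 1.03% at 28 °C, so a fall much beyond a point was not possible there. Upward, the joint limit at chr19a, 0.419 points, was larger than its 28 °C mean of 0.300%. Among the 3 of high level the widest was 4.23 points, at chr20. For single CpGs, joint limits over the 294 tested lay within 2 points at 132, within 10 points at 217 and within 20 points at 267. Another 7 had too few fish for any joint limit. Most of the 294 lie in the 8 amplicons of low level, so these counts say little about CpGs of intermediate level. At chr18 and chr3a every CpG had a joint limit beyond 10 points. The widest was 67.6 points, at position 54645721 in chr16.

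**Figure D2:**
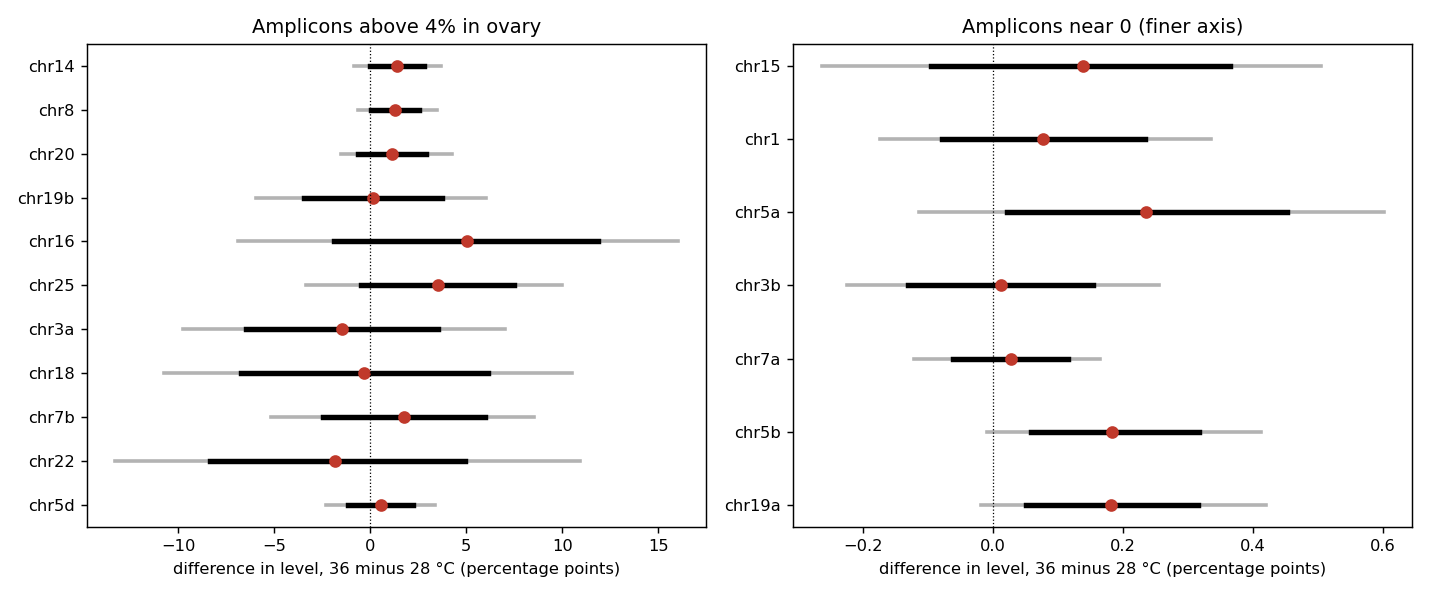
Difference in methylation level between 36 °C and 28 °C ovaries at the 18 amplicons tested, in percentage points. Dots are the differences, black bars the 95% limits of each amplicon and grey bars the limits that hold jointly, each of which includes 0, with a finer axis in the right panel.

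The amplicons of intermediate level had the widest limits, and fish of the same group differed most there. Amplicon chr18, from 39655137 to 39655521 on chromosome 18, holds 15 CpGs. Its level ran from 23.6% to 48.9% with a median of 31.6% in the 36 °C ovaries, and from 23.7% to 45.1% with a median of 31.8% in the 28 °C ovaries. The ranges lay almost on top of each other, and the highest fish were fish 4 at 36 °C and fish 16 at 28 °C. The difference was -0.346 points (SE 3.02, 95% limits -6.74 to 6.14, joint limits -10.7 to 10.5). Single CpGs differed by -3.32 to 1.55 points. Amplicon chr3a, from 17897376 to 17897597 on chromosome 3, gave a similar picture, with 6 CpGs that differed by -4.07 to 1.64 points. It had 24.9% to 41.3% with a median of 31.3% at 36 °C, and 27.3% to 40.7% with a median of 33.8% at 28 °C. The difference was -1.49 points (SE 2.32, joint limits -9.74 to 7.01), and fish 4 at 36 °C and fish 16 at 28 °C again stood highest in their groups. The difference was -2.46 points without fish 4 at 36 °C and -0.556 points without fish 16 at 28 °C.

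At chr7b, from 34854540 to 34854908 on chromosome 7, the 36 °C ovaries had 17.5% to 29.0% with a median of 26.3%, and the 28 °C ovaries 15.1% to 31.3% with a median of 24.0%. The 28 °C range enclosed the 36 °C range, and the difference was 1.76 points (SE 2.10, joint limits -5.15 to 8.50). It was 0.693 points without fish 20 at 28 °C, the lowest of its group, and 2.72 points without fish 16 at 28 °C, the highest. All 9 CpGs of chr7b had a higher mean at 36 °C, by 0.481 to 3.04 points, and 0 of them had an unadjusted p below 0.05. At chr19b, from 27434975 to 27435361 on chromosome 19, the 36 °C ovaries averaged 62.7% ± 4.55 (SD, n = 11) and those at 28 °C averaged 62.6% ± 2.53 (SD, n = 9). Single CpGs differed by -3.38 to 3.25 points. The amplicon difference of 0.150 points had joint limits of -5.97 to 6.02, the narrowest of the 7 intermediate amplicons tested.

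Amplicon chr25, from 22224443 to 22224607 on chromosome 25, differed in range more than in mean. The 36 °C ovaries ran from 39.7% to 53.2% with a median of 47.2%, and the 28 °C ovaries from 41.2% to 46.4% with a median of 42.3%. Of the 11 fish at 36 °C, 6 lay above the highest 28 °C fish, while the lowest fish of all was at 36 °C as well. Each of its 8 CpGs had a higher mean at 36 °C, by 0.3998 to 5.96 points. The difference in means was 3.50 points (SE 1.74, joint limits -3.36 to 9.97, exact permutation test, adjusted p = 0.241). The mean absolute deviation from the group median was 4.56 points at 36 °C and 1.52 points at 28 °C. This difference in spread had an exact permutation p of 0.00565, and 0.102 after adjustment over 18 amplicons. Across the panel 0 of 18 amplicons differed in spread after adjustment, 2 had an unadjusted p below 0.05, and the spread was wider at 36 °C in 13. The other with an unadjusted p below 0.05 was chr1, where the deviation was 0.0849 points at 36 °C and 0.176 points at 28 °C (exact permutation test, adjusted p = 0.332).

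Amplicon chr16, from 54645605 to 54645858 on chromosome 16, held the CpG with the largest single difference. Its first CpG had a mean of 94.4% at 36 °C and 94.5% at 28 °C, and its last, 253 bp away, had 35.3% at 36 °C and 29.7% at 28 °C. Of the 19 CpGs 17 had a higher mean at 36 °C, and the differences ran from -6.70 to 11.02 points. The CpG at position 54645618, 13 bp from the first, reads CGG. It ran from 81.9% to 99.7% with a median of 86.7% in the 36 °C ovaries, and from 59.6% to 86.2% with a median of 78.6% in the 28 °C ovaries. Of the 28 °C fish 6 of 8 lay below the lowest 36 °C fish, and the ranges overlapped between 81.9% and 86.2%. The difference was 11.02 points (SE 3.44, 95% limits 4.47 to 17.8, joint limits -1.90 to 28.4), with an adjusted p of 0.132 in the exact permutation test. Without fish 12 of the 28 °C ovaries, the lowest at 59.6%, it was 8.55 points.

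The other CpGs with the largest differences in size also lay in chr16. The means were 50.1% at 36 °C and 41.1% at 28 °C at position 54645801. At position 54645763 they were 70.2% at 36 °C and 61.3% at 28 °C. Position 54645757 had 62.0% at 36 °C and 53.2% at 28 °C, and position 54645761 had 62.3% at 36 °C and 55.3% at 28 °C. Their differences of 7.003 to 9.05 points had adjusted p-values from 0.512 to 0.630 in the exact permutation test, and none passed. At position 54645763 the 95% limits were 0.360 to 17.4 points, with an unadjusted p of 0.0420 in that test. The 95% limits at the other positions included 0, and at 54645801 they were -0.325 to 18.5 points. Within chr16 the 28 °C group had 8 fish, since fish 16 had 0 reads per CpG at the median there.

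**Figure D3:**
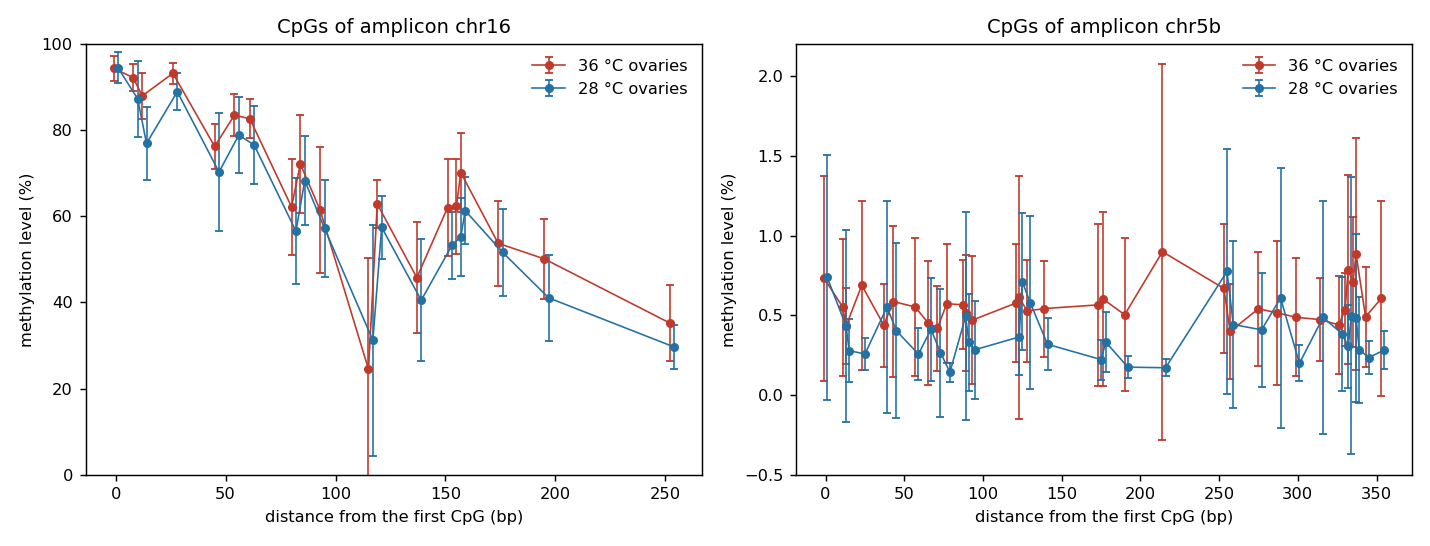
Mean methylation level in percent, with SD over fish, at each CpG of chr16 and of chr5b against its distance in bp from the first CpG of the amplicon. The 36 °C ovaries are in red and the 28 °C ovaries in blue. At chr16 17 of 19 CpGs are higher at 36 °C, and at chr5b 26 of 34, on a much finer axis whose SD bars reach below 0.

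The 8 amplicons of low level lay close to 0 in both groups, and the smallest p-values of the comparison were among them. No usable measure of bisulfite conversion was at hand, and the part of unconverted cytosines in levels this near 0 was not tested. Amplicon chr5b, from 34961306 to 34961660 on chromosome 5, holds 34 CpGs. The 36 °C ovaries ran from 0.390% to 1.01% with a median of 0.526%, and the 28 °C ovaries from 0.258% to 0.543% with a median of 0.348%. All 11 fish at 36 °C lay above the 28 °C mean and 5 above every 28 °C fish. The difference was 0.183 points (SE 0.0604, 95% limits 0.0584 to 0.316, joint limits -0.0103 to 0.412, exact permutation test, adjusted p = 0.0559). Depth at chr5b did not overlap between the groups, with 37678 to 169594 reads per CpG at 36 °C and 1963.5 to 36232.5 at 28 °C. The part of depth in this difference was not tested. Averaged over the 7 low amplicons other than chr5d, chr5b among them, the 36 °C ovaries had 0.689% ± 0.0754 (SD, n = 11) and the 28 °C ovaries 0.564% ± 0.0988 (SD, n = 9). Among the 36 °C fish, fish 6, 7 and 9 had no level at chr19a and fish 4 had none at chr15. Their averages rest on fewer amplicons, and this contrast was not tested.

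Amplicon chr19a, from 1356464 to 1356767 on chromosome 19, had the same adjusted p. The 36 °C ovaries ran from 0.306% to 0.749% with a median of 0.451% in the 8 fish with a level, and the 28 °C ovaries from 0.136% to 0.427% with a median of 0.311% in 9 fish. All 8 fish at 36 °C lay above the 28 °C mean and 5 above every 28 °C fish. The difference was 0.181 points (SE 0.0638, 95% limits 0.0505 to 0.315, joint limits -0.0183 to 0.419, exact permutation test, adjusted p = 0.0559). Leaving out 1 of 3 particular fish brought both amplicons below 0.05. The adjusted p was 0.0289 without fish 3 at 36 °C, 0.0483 without fish 16 at 36 °C and 0.0434 without fish 16 at 28 °C, for each of them. Amplicon chr5b also passed without fish 5 at 36 °C (exact permutation test, adjusted p = 0.0327) and without fish 19 at 28 °C (0.0410). Other cuts went the opposite way. The smallest difference was 0.139 points at chr5b, without fish 6 at 36 °C, and 0.143 points at chr19a, without fish 5 at 36 °C. Over all single-fish cuts the adjusted p reached 0.123 at chr5b and 0.127 at chr19a (exact permutation test). On a logit scale, which stretches levels near 0, chr5b alone passed (exact permutation test, adjusted p = 0.00107).

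The next 5 low amplicons had joint limits within a point of 0, and the differences of single CpGs in the low amplicons apart from chr5d lay between -1.66 points, in chr15, and 1.51 points, in chr5a. Amplicon chr5a, from 23697173 to 23697500 on chromosome 5, averaged 0.886% ± 0.250 over 11 fish at 36 °C and 0.652% ± 0.203 over 9 fish at 28 °C (SD). Its 95% limits were 0.0206 to 0.453 points and its joint limits -0.114 to 0.602 points. Amplicon chr15, from 7060346 to 7060685 on chromosome 15, averaged 1.17% ± 0.214 over 10 fish at 36 °C and 1.03% ± 0.265 over 9 fish at 28 °C (SD), with joint limits of -0.264 to 0.505 points. Amplicon chr1, from 6886521 to 6886862 on chromosome 1, averaged 0.820% at 36 °C and 0.743% at 28 °C, with joint limits of -0.175 to 0.335 points. Amplicon chr3b, from 54352466 to 54352868 on chromosome 3, averaged 0.453% at 36 °C and 0.442% at 28 °C, with joint limits of -0.226 to 0.256 points. Amplicon chr7a, from 22538693 to 22539035 on chromosome 7, averaged 0.420% at 36 °C and 0.393% at 28 °C, and its joint limits of -0.122 to 0.165 points were the narrowest of the panel. At these 5 the ranges of the 36 °C and 28 °C fish overlapped. With each fish left out in turn the difference ran from 0.0351 to 0.115 points at chr1, from 0.00331 to 0.0609 at chr7a and from 0.0974 to 0.211 at chr15.

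Single CpGs with the smallest p-values lay in these amplicons as well. At position 7060549 in chr15, which reads CGG, the 36 °C ovaries had 0.149% to 1.75% and the 28 °C ovaries 0% to 0.293%. The 0% was that of fish 4 at 28 °C, on 118 reads. Depth ran from 4358 to 30409 reads at 36 °C and from 118 to 153144 at 28 °C, and its part in the difference was not tested. There 9 of 10 fish at 36 °C lay above every 28 °C fish, and the difference was 0.485 points (SE 0.144, exact permutation test, adjusted p = 0.132). Without fish 16 at 36 °C this CpG passed (exact permutation test, adjusted p = 0.0121). Without fish 7 at 36 °C its difference was 0.365 points, and over all single-fish cuts its adjusted p reached 0.351 (exact permutation test). At position 34961384 in chr5b, which reads CGA, the levels were 0.186% to 1.36% at 36 °C and 0.0617% to 0.240% at 28 °C. At position 34961521 in chr5b they were 0.198% to 4.37% at 36 °C, with fish 4 highest, and 0.103% to 0.256% at 28 °C. At position 22538946 in chr7a they were 0.234% to 1.93% at 36 °C, with fish 7 highest, and 0.117% to 0.286% at 28 °C. The last 2 positions had an adjusted p of 0.247 in the exact permutation test, and of 0.0385 on the logit scale.

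The 3 highly methylated amplicons were each slightly higher at 36 °C, and none passed the exact permutation test. At chr14, from 23501841 to 23502150 on chromosome 14, the 36 °C ovaries had 90.1% to 97.3% with a median of 93.3%, and the 28 °C ovaries 90.5% to 94.0% with a median of 92.1%. The difference was 1.39 points (SE 0.646, 95% limits 0.00705 to 2.80, joint limits -0.864 to 3.70, exact permutation test, adjusted p = 0.176). Of the 11 fish at 36 °C, 10 lay above the 28 °C mean, though the ranges overlapped. The quasi-binomial model, in which deeper fish weigh more, gave a difference of 2.90 points at chr14. Fish 4 at 36 °C, the highest at 97.3%, had a median of 252930 reads per CpG there, beside a group median of 6508. The part of this fish in the model's call was not tested. At chr8, from 29856084 to 29856417 on chromosome 8, the means were 91.6% at 36 °C and 90.3% at 28 °C. That is a difference of 1.27 points (SE 0.589, 95% limits 0.0252 to 2.55, joint limits -0.656 to 3.49). At chr20, from 1252974 to 1253280 on chromosome 20, the means were 86.6% at 36 °C and 85.5% at 28 °C. They differed by 1.13 points (SE 0.816, joint limits -1.54 to 4.23). Single CpGs differed by 0.245 to 3.18 points in chr8, by -0.135 to 3.90 in chr14 and by -1.36 to 3.60 in chr20. An unadjusted p below 0.05 (exact permutation test) was found at 1 of 4 CpGs in chr8, 0 of 10 in chr14 and 0 of 10 in chr20. Fish 4 of the 36 °C ovaries was the highest of its group at all 3 amplicons. Without it the difference was 0.926 points at chr8, 1.01 points at chr14 and 0.690 points at chr20.

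Amplicons with few fish or shallow reads gave the least information. Amplicon chr22, from 20736688 to 20736788 on chromosome 22, had a median of 47 reads per CpG at 36 °C and 68.5 at 28 °C. Its level was 0.417% to 19.1% with a median of 3.78% in 8 fish at 36 °C, and 3.55% to 17.9% with a median of 4.82% in 6 fish at 28 °C. Fish 4 at 36 °C and fish 16 at 28 °C were the highest here too, and the joint limits were -13.3 to 10.9 points. Its 6 CpGs each had a lower mean at 36 °C, by differences of -4.17 to -0.461 points. Amplicon chr5c, from 44344567 to 44344999 on chromosome 5, had a level in 11 of 11 fish at 36 °C and in 4 of 9 at 28 °C (Fisher's exact test, p = 0.00813, adjusted over 20 amplicons 0.163). Its median depth was 12399 reads per CpG at 36 °C and 4 at 28 °C. The levels were 20.97% to 35.3% at 36 °C and 21.1% to 35.4% at 28 °C, and the 95% limits of the difference were -4.10 to 8.14 points. Fish 10, 11, 16, 19 and 20 at 28 °C, without a level at chr5c, had medians of 1301 to 4174 reads per CpG at chr15. Fish 6, 12 and 13 at 28 °C had 61058.5 to 156180 at chr15, and fish 4 had 122. The part of library make-up in the temperature differences was not tested. The remaining amplicon, on an unplaced scaffold from 6205 to 6328, had levels of 20.2% to 66.5% in 8 fish at 36 °C and 20% to 60.4% in 4 fish at 28 °C. Its 95% limits, -19.2 to 25.9 points, were the widest of the 20 amplicons.

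**Figure D4:**
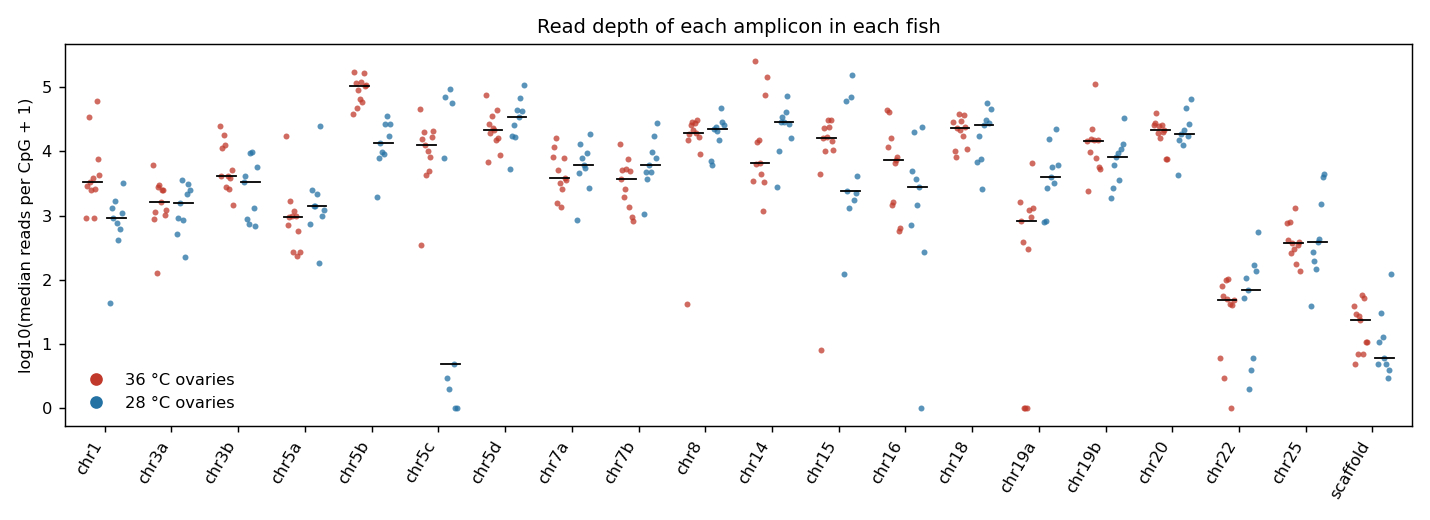
Median reads per CpG of each amplicon in each ovary, as log10 of reads plus 1, with 36 °C fish in red to the left and 28 °C fish in blue to the right, and the group median as a black line. At chr5b the groups do not overlap, and at chr5c 5 fish at 28 °C have next to no reads.

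Some CpGs varied between fish of the same group far more than by temperature, and 3 were singled out after their values were seen, by the largest SD within a group. At position 54645721 in chr16, 5 fish at 36 °C stood between 0.174% and 1.15% and the other 6 between 23.5% and 72.9%. At 28 °C, 1 fish stood at 0.163% and the other 7 between 8.51% and 86.7%. At position 27435056 in chr19b no fish lay between 45.7% and 71.6%. Above that gap were 4 of 11 fish at 36 °C and 2 of 9 at 28 °C. At position 44400733 in chr5d, the last of its 19 CpGs, levels were 60% to 90% at 36 °C and 47.1% to 88.1% at 28 °C, on 10 to 60 reads, while the other 18 CpGs averaged at most 20.2%. Reads this few add sampling error to each fish's level, and the part of it in the spread at this CpG was not tested. The level of chr5d moved with whether this CpG had 10 reads. The amplicon spans 44400346 to 44400733 on chromosome 5. With it, chr5d had 5.30% to 6.68% in 8 fish at 36 °C and 4.40% to 6.92% in 6 fish at 28 °C. Without it, the level was 2.23% to 4.39% in 3 fish at 36 °C and 2.07% to 2.47% in 3 fish at 28 °C. The difference at chr5d was 0.533 points (joint limits -2.33 to 3.36), and 0.240 points when the 3 variable CpGs were left out. It ran from 0.192 to 0.843 points with each fish left out in turn. Its single CpGs differed by -1.02 to 4.198 points.

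Averaged over the panel, a fish's mean deviation from the average of each amplicon was 0.347 points at 36 °C (SD 1.64 over 11 fish) and -0.364 points at 28 °C (SD 1.20 over 9 fish). The groups thus differed by 0.711 points (SE 0.635, 95% limits -0.652 to 2.09, exact permutation p = 0.297). On the logit scale, which gives more weight to levels near 0 and near 100%, the panel difference was 0.144 logit units and passed (exact permutation p = 0.0093). Fish 4 at 36 °C stood highest at 3.94 points and fish 16 at 28 °C next at 2.49 points. Fish 4 led its group at chr3a, chr8, chr14, chr18, chr20, chr22 and chr25. Without it the panel difference was 0.361 points, and without fish 16 at 28 °C it was 1.08 points. Within groups, the levels of chr3a and chr18 moved together between fish (Pearson r = 0.787 over 20 fish, a description of amplicons from the same libraries). This was the highest r of the pairs examined, and the lowest was -0.566, for chr5c and chr7b over 15 fish. Across fish the panel value and depth gave no correlation past the test (Pearson r = 0.0951, permutation p = 0.687, and Spearman rho = -0.101, permutation p = 0.671, n = 20). Without the 2 fish farthest from the median depth r was 0.0185, and within groups it was -0.0917 at 36 °C and 0.0181 at 28 °C.

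The temperature difference in ovary was set against that in libraries labelled testis with the same prefix (8 fish at 36 °C and 10 at 28 °C). The difference between tissues was tested itself, by permuting residuals under an additive model with Benjamini-Hochberg adjustment. It passed at 11 of 20 amplicons, with the ovary difference below the testis difference at 10 and above it at 1, chr5c. The permutation treats the spread as alike in every group. At 36 °C the SD was 31.8 in testis and 3.30 in ovary at chr7b, and 2.59 and 16.1 at the scaffold, so these p-values are approximate. At chr5c the difference was 2.07 points in ovary and -12.8 points in testis, and at the scaffold 3.84 points in ovary and 59.5 points in testis. At chr7b the ovary difference was 1.76 points and the testis difference 49.6 points with an SE of 11.6 (permutation test between tissues, adjusted p = 0.00065). At chr18 the values were -0.346 points in ovary and 42.4 points with an SE of 9.06 in testis (permutation test, adjusted p = 0.00065). At chr3a they were -1.49 points in ovary and 29.3 points with an SE of 7.51 in testis (permutation test, adjusted p = 0.0009). In libraries labelled testis, chr18 averaged 81.2% at 36 °C (SD 24.4 over 8 fish) and 38.7% at 28 °C (SD 7.75 over 8 fish), beside 32.1% at 36 °C and 32.4% at 28 °C in ovary. At the other 9, chr1, chr5a, chr5b, chr5d, chr7a, chr15, chr16, chr19a and chr22, the difference between tissues did not pass after adjustment.

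**Figure D5:**
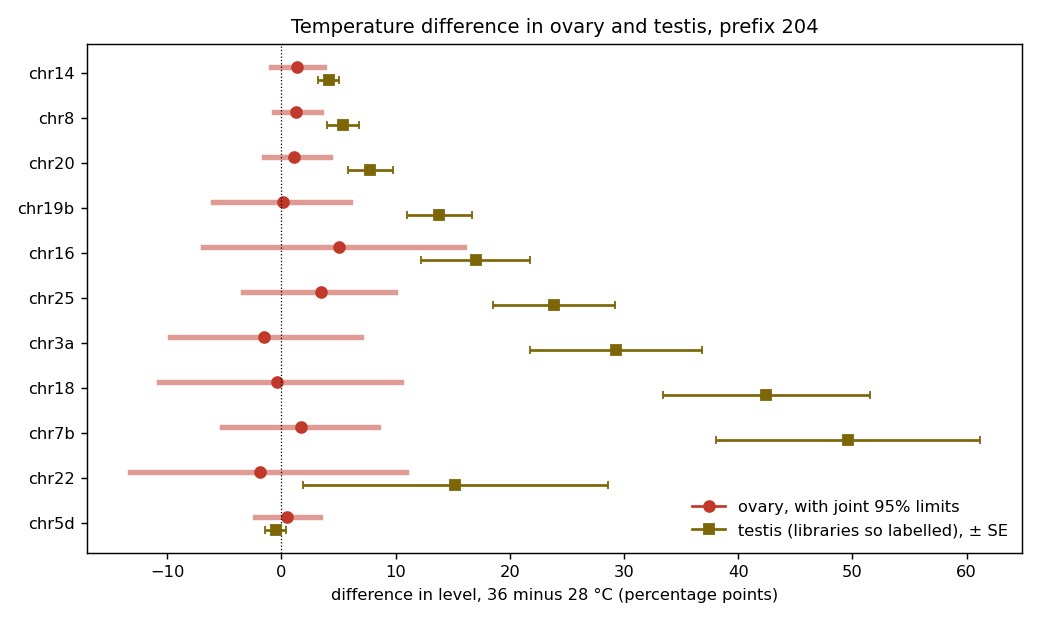
Difference in methylation level between 36 °C and 28 °C, in percentage points, in ovary (red dots, with the limits that hold jointly over the amplicons) and in libraries labelled testis (brown squares, with SE), at the 11 amplicons above 4% in ovary that have joint limits. The scaffold and chr5c, with 4 fish each at 28 °C in ovary, are not drawn. At chr7b the ovary difference is 1.76 points and the testis difference 49.6 points.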

How the data were processed

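DNA from gonads was treated with bisulfite, targets were amplified in multiplex and the libraries were sequenced on Illumina machines, per the labels' protocols. For each fish the authors deposited raw counts of methylated and unmethylated reads at every listed CpG. The submitters' processing notes name Bismark 16.0, Bowtie2, Trim Galore 0.4.5 and FastQC 0.11.6, with the GRCz10 build. Neither primers nor any step against PCR duplicates could be read from the labels. The series design links the labels HT and LT to 36 °C and 28 °C.

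A CpG was kept if 50% or more of the 73 fish had 10 reads there, and neighbours up to 200 bp apart formed an amplicon, with 2 CpGs as the fewest. An amplicon level needed 50% of its CpGs, and a test 5 fish per side. The fish was the replicate. With 11 and 9 fish the exact permutation test used all 167960 splits. Limits invert this test and assume that temperature shifts every fish alike; joint limits divide 0.05 by the number tested. The difference between tissues used 100000 resamples of residuals, whose smallest p is 1e-05. Python 3.11.15, numpy 2.4.6, scipy 1.17.1 and limma 3.58.1 were used, and the tests were tested on simulated data. Every amplicon is named, and of the CpGs the 5 with the smallest p and the 5 with the largest difference. Members, amplicons and tests were chosen with earlier results of these data known. Gene lists on gonad pathways, germ cells, chromatin and stress matched 0 amplicons, since the gene table given belongs to a different assembly than the files; matching CpG spacing to promoter sequences was not done. Mitochondrial CpGs, a usual check of conversion, had 9 calls in these ovaries, all 9 of them methylated, which were too few to use.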

Additional observations from a re-analysis of the deposited data

Results flagged for a closer look

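In groups of 4 to 10 ovaries, a single fish stood apart in 4 of 26 sets of values, where chance gives about 1 in 20. Sets of 11 fish, which include the panel value and most amplicons at 36 °C, were not tested, and the sets share fish. Fish 4 at 36 °C had 19.1% at chr22, with the next highest of that group at 7.53%. At 28 °C fish 20 had 1.62% at chr15 (next 1.15%), fish 13 had 77.1% at chr16 (next 64.5%), and fish 16 had a panel value of 2.49 points (next 0.455).

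The temperature difference in ovary minus that in libraries labelled testis differed from 0 by the residual permutation test at 11 amplicons. It was -55.6 points at the unplaced scaffold, -47.8 at chr7b, -42.8 at chr18, -30.8 at chr3a, -20.3 at chr25 and -13.7 at chr19b. It was -6.66 points at chr20, -4.15 at chr8, -2.74 at chr14 and -0.319 at chr3b, and 14.9 points at chr5c. At chr5c and at the scaffold the ovaries at 28 °C numbered 4.

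Fish 14 of the 36 °C ovaries, left out for its depth, had a level of 3.40% at chr5b on 912 read calls over its CpGs, above the highest 28 °C ovary at 0.543%. Its median there was 27 reads per CpG, beside 1963.5 to 36232.5 in the 28 °C ovaries, so this level rests on few reads.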

How the results depend on the processing

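Counts of called amplicons and CpGs stayed at 0 with minimums of 5, 30 and 100 reads, a gap of 500 bp between CpGs, pooled counts, CpGs covered in 50% of the compared ovaries, fish 14 included, 3 fish per side, ovaries of both prefixes at 28 °C and limma. The gap of 500 bp gave the same 18 amplicons and 294 CpGs tested and the same panel difference, so it was no real alternative. Fish 14 had a level at 1 amplicon, chr5b, so its inclusion added no level at the others. With CpGs covered in 80% of all fish 2 amplicons passed, chr5b and chr19a (adjusted p = 0.0497 each, exact permutation test), out of 16 tested. Their differences and unadjusted p-values were the same as in the main test, which adjusted over 18 amplicons. On the logit scale 1 amplicon and 2 CpGs passed, and the panel difference was 0.144 logit units (exact permutation p = 0.0093). The quasi-binomial logistic model called 1 amplicon, chr14, and 4 CpGs. The cause of the changes on the logit scale and with the quasi-binomial model was not tested. The widest joint limit was 36.2 points with 5 reads, 32.2 points with CpGs covered in 50% of the compared ovaries and 46.5 points with 3 fish per side, settings under which more amplicons were tested. Leaving out each fish gave 0 to 2 amplicons, 0 to 1 CpGs, panel differences of 0.361 to 1.08 points and widest joint limits of 14.8 to 17.9 points.

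Of 247 amplicon differences under other settings 11 changed sign, and none of these was called. They were 0.221 points at chr22 (5 reads), -0.0174 logit units at chr1, -0.0152 at chr1, -0.0222 at chr3b and 0.539 at chr18 (both prefixes), and -0.0333 at chr5a and -0.00652 at chr7a (quasi-binomial). With the replicate block they were -0.0461 at chr3b, -0.343 at chr5d, -0.0992 at chr15 and -0.0465 at chr19b. Without the 3 most variable CpGs, an alternative chosen after seeing the data, chr19b was -0.366 points. Leaving out single fish gave -0.0151 to 0.0355 points at chr3b, -2.02 to 1.24 at chr18, -0.414 to 0.914 at chr19b and -3.76 to 0.227 at chr22.

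Fish numbers shared by both groups formed 6 pairs, whose deviations correlated from -0.279 to 0.518, with 3 above 0.1. So few scattered values cannot settle whether fish of the same number are paired, and no label pairs them. With the replicate block 0 of 17 amplicons and 0 of 287 CpGs passed (exact sign-flip test), and 2 and 11 had an unadjusted p below 0.05. With at most 6 pairs, nothing can pass adjustment in that test unless most features reach its smallest possible p. These counts of 0 therefore say little about temperature. The panel difference with the block was 0.686 points (exact sign-flip test, p = 0.531). Counts of amplicons that differed in spread stayed at 0, and 10 amplicons differed between tissues by limma or with 30 reads. Shallow reads at chr22 and the scaffold and missing 28 °C fish at chr5c limit what could be seen there.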
